A study of Mus musculus with 4 samples.

Results

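The cells described here are Elane-high neutrophil-committed progenitor-like cells of mouse bone marrow, 1104 of the 13539 cells kept from 4 single-cell libraries. They were selected on measured values: at least 20 Elane UMIs (unique molecular identifiers, each standing for 1 captured transcript) per 10000, at least 1 Ms4a3 UMI, at most 1 Irf8 UMI, no F13a1 UMI, and a sum of Ltf, Camp and Ngp under 20 per 10000. Barcodes were kept as cells from 3000 UMIs and 200 genes upward, unless mitochondrial UMIs made more than 10%. The values of these 7 genes describe the selection and support nothing else. The Idh1-WT libraries 1 and 2 gave 254 and 239 such cells, and the Idh1-R132H libraries 1 and 2 gave 278 and 333.

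Both groups came from donor mice in which an EYFP reporter was recombined by tamoxifen over 5 days, and in the Idh1-R132H group the same step switched on a heterozygous mutant Idh1 allele. After 2 weeks, marrow cells with EYFP and without lineage markers went into irradiated recipients that received no supporting marrow, and the chimeric marrow was collected another 16 weeks on. From each mouse, 4000 EYFP-positive cells of each of 3 populations (all CD45.1-positive cells, the stem cell fraction LSK and the progenitor fraction LK) were pooled in 1 tube for 1 library, so the sort in part sets any share of cells. The driver of the recombinase and the strain and age of the mice are not given in the sources used here. Nor is it stated whether the mice of a group had separate donors, so p-values measure only the spread between these libraries.

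Neutrophils arise from granulocyte and monocyte progenitors that first fill primary (azurophil) granules with serine proteases and myeloperoxidase. Secondary granules, which hold lactoferrin (Ltf), cathelicidin (Camp) and Ngp, are made later and depend on the factor Cebpe. Gfi1 and Cebpe favour the neutrophil path and Irf8 the monocyte path. The mutant IDH1 enzyme consumes NADPH and makes 2-hydroxyglutarate, which inhibits dioxygenases that use 2-oxoglutarate.

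The promoters of 5 genes that were high together in these cells are shown for their letters. Each line gives 300 bases on the strand of the gene, from 250 before its start to 50 after, from RefSeq (GRCm38.p6). Capitals mark GAGGAA (ETS family, to which Spi1 belongs), TGTGGT (RUNX) and TTGCNNAA (C/EBP), searched on both strands. Elane lies at chr10:79886062-79886361 and Prtn3 at chr10:79879417-79879716, both on the plus strand. Ctsg lies at chr14:56102525-56102824 on the minus strand, Mpo at chr11:87793534-87793833 on the plus strand and Ms4a3 at chr19:11640802-11641101 on the minus strand.
Elane: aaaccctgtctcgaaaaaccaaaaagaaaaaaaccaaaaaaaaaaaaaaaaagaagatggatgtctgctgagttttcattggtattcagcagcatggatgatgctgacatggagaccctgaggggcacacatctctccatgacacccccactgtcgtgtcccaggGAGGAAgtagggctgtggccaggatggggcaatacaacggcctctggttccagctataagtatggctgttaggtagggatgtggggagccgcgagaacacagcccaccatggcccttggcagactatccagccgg
Prtn3: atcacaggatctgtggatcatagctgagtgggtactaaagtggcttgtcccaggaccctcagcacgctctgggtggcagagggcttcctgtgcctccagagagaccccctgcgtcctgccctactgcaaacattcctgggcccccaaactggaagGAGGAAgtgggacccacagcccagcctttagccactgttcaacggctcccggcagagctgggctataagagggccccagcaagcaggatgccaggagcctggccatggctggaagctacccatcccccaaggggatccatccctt
Ctsg: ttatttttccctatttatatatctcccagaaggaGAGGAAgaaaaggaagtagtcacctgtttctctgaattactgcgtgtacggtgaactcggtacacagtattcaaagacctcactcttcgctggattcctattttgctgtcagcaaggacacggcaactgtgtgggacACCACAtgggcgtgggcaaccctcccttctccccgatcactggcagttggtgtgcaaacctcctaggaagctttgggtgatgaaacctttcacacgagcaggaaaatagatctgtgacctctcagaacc
Mpo: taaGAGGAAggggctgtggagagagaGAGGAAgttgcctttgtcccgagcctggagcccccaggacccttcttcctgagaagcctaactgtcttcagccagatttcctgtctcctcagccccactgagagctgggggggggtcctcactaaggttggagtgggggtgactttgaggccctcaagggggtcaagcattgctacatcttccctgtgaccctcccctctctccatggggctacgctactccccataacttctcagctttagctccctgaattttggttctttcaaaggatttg
Ms4a3: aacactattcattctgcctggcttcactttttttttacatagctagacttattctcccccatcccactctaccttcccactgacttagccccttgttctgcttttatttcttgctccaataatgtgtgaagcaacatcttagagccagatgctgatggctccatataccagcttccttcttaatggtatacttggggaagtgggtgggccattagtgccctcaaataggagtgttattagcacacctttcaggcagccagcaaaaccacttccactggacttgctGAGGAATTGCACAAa
All 5 windows held GAGGAA, as did 28.3% of 32851 promoters of this length. The RUNX letters, in 16.8% of all promoters, were in the Ctsg window, and the C/EBP letters, in 10.8%, were in the Ms4a3 window directly after GAGGAA, without overlap. These are matches of letters and show no binding.

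Primary granule genes were abundant in all 4 libraries. In the order Idh1-WT 1, Idh1-WT 2, Idh1-R132H 1 and Idh1-R132H 2, Elane, the gene of neutrophil elastase, stood at 16569, 18304, 16934 and 16618 CPM (counts per 1000000 UMIs summed over these cells). Ms4a3, a membrane protein gene of granulocyte and monocyte progenitors, stood at 2210.1, 2245, 2151 and 2088 CPM. Both levels follow from the selection. Mpo (myeloperoxidase), which the rule did not use, stood at 11629, 11900.2, 10986 and 10914 CPM. Ctsg (cathepsin G) stood at 7494, 7069, 6928 and 6848 CPM and Prtn3 (proteinase 3) at 6228, 6311, 7071 and 6626 CPM. Of the markers given for these cells, Ctsg and Prtn3, which the rule did not use, were thus present in every library. Elane and Ms4a3 are present by the rule. Idh1 stood at 71.0, 81.4, 75.6 and 64.5 CPM, with a log2 difference of −0.10 (SE 0.09, adjusted p = 0.792 by edgeR's quasi-likelihood test with Benjamini-Hochberg adjustment). These counts do not tell the Idh1 alleles apart and so do not check the genotype labels.

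The libraries held 40364701 to 56353466 UMIs in all, and the median Elane-high cell held 22134 and 20238 UMIs in Idh1-WT, against 19721 and 19030 in Idh1-R132H, lower in both. Across libraries, 77 barcodes were kept more than once, and 2 to 3 Elane-high cells per library had such a barcode. The libraries differed in Xist. A Xist UMI with no UMI of a Y-linked gene was found in 78.0% and 59.4% of the Elane-high cells of Idh1-WT 1 and 2, against 51.1% and 38.4% of those of Idh1-R132H 1 and 2, so results are also given within cells of either kind.

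For comparison, 3 neighbouring classes were defined from the same genes, and their levels are therefore a description without a test. Elane-low cells (297) had Mpo but under 20 Elane UMIs per 10000. Irf8 or F13a1 cells (2056) met the Elane and Ms4a3 limits but held at least 2 Irf8 UMIs or at least 1 F13a1 UMI. Granule-loaded cells (76) were past the limit for Ltf, Camp and Ngp.

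The Elane-high cells held the most Mpo of the 4 classes in every library. It stood at 4109 ± 306 CPM (SD, n = 4 libraries) in the Elane-low cells, 11358 ± 484 in the Elane-high cells and 5529 ± 1083 in the granule-loaded cells. Genes of later stages lay between their levels in the other classes. Cebpe stood at 46.4 ± 10.6, 263 ± 45.8 and 652 ± 109 CPM in that order. Fcnb, the gene of ficolin B, stood at 4.92 ± 1.53, 89.4 ± 21.4 and 1861 ± 317 CPM, and S100a8, a subunit gene of calprotectin, at 573 ± 108, 3508 ± 416 and 106905 ± 13721 CPM. Cd34, a surface gene of progenitors, ran the other way, at 314 ± 21.9, 92.0 ± 8.31 and 27.3 ± 21.3 CPM. The Irf8 or F13a1 cells were close to the Elane-high cells in Mpo, at 9495 ± 123 CPM, and farther in Cebpe, at 87.2 ± 11.2 CPM. Gfi1 stood at 23.5 ± 2.29 CPM there and at 51.7 ± 5.64 in the Elane-high cells, and Cd63, a granule membrane gene, at 360 ± 26.9 and 1169 ± 80.9.

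**Figure D1:**
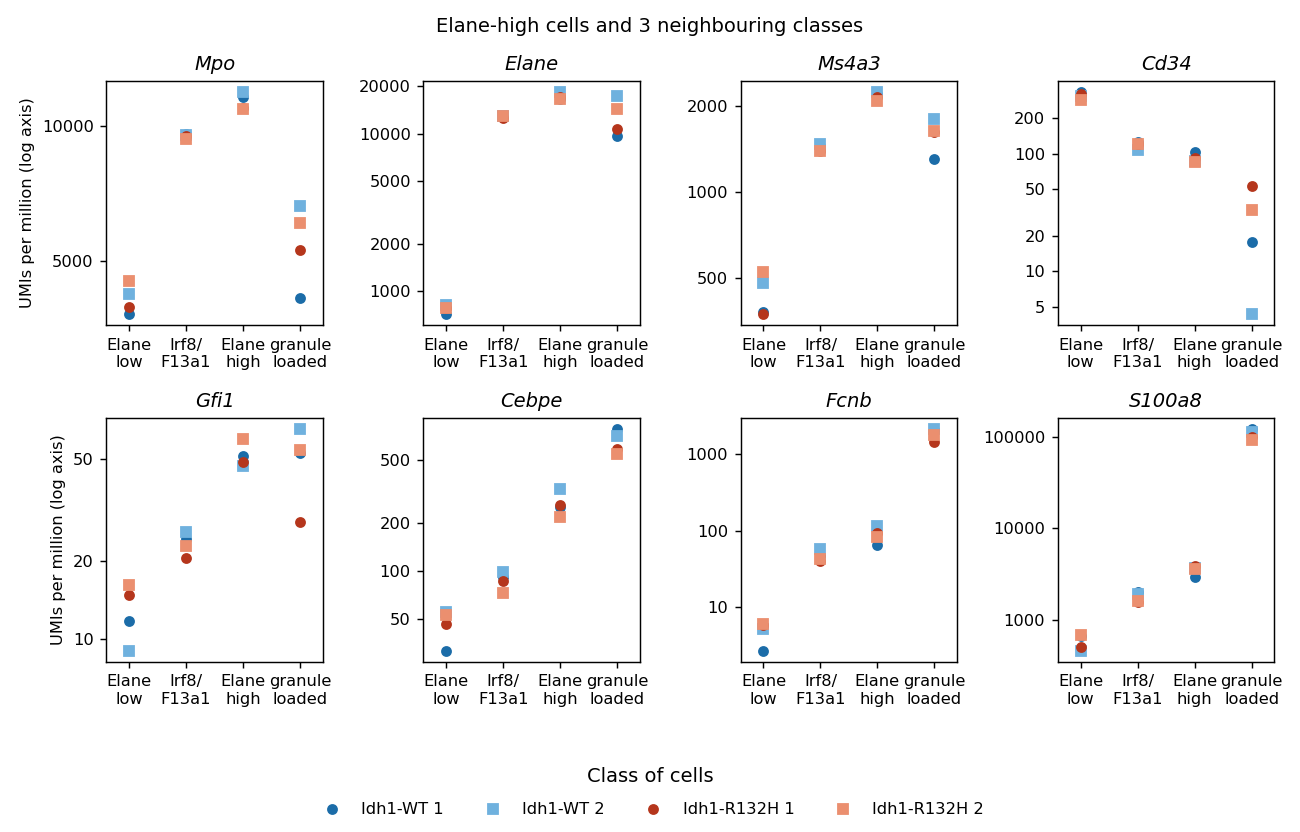
CPM (vertical log axis) of 8 genes in the 4 classes of cells (horizontal axis); each point is 1 library. Mpo is highest in the Elane-high cells, and Fcnb and S100a8 are highest in the granule-loaded cells, in all 4 libraries.

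Cells near each limit differed gradually. The 76 cells with 20 to 40 Elane UMIs per 10000, just inside the limit, held 6234 CPM of Mpo, 172 of Cebpe and 239 of Cd34. The 160 cells with 10 to 20, just outside, held 3696, 92.1 and 233 CPM. The 228 members with 1 Irf8 UMI held 205 CPM of Cebpe, and 82 otherwise alike cells with 2 Irf8 UMIs held 131 CPM. Another 312 cells were outside through 1 F13a1 UMI, and they resembled the members in Mpo (12256 CPM) and Cebpe (222 CPM). At the granule limit, 14 members had a sum of 10 to 20 per 10000 and 12 cells one of 20 to 40. The limits on Irf8 and F13a1 are single UMIs and so depend on depth. Of the cells within the Elane, Ms4a3 and granule limits, 30.1% and 38.4% passed them in the Idh1-WT libraries, against 34.4% and 37.6% in the Idh1-R132H libraries. With every cell thinned to 3000 UMIs the shares were 67.0% and 72.6% in Idh1-WT, against 68.6% and 72.4% in Idh1-R132H.

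Ctsg, Cebpe and Fcnb were seen more often in these cells than in B-like cells of the same library. RNA from burst cells adds UMIs to every droplet, and cells with Cd79a, Cd79b and Ms4a1 UMIs (B-like cells, 85 to 126 per library, median 1687 to 1841 UMIs) should lack these genes. With 1000 UMIs drawn per cell, Ctsg was seen in 98.8% to 99.2% of the Elane-high cells and 23.7% to 33.7% of the B-like cells of the 4 libraries. Cebpe was seen in 15.3% to 32.6% and 1.59% to 4.71%. Fcnb was seen in 4.72% to 8.63% of the Elane-high cells, in 2.11% of the B-like cells of Idh1-WT 1 and in none of those of the other 3 libraries. Summed over all cells, Fcnb stood at 0.659 to 1.17 UMIs per 10000 in the Elane-high cells and 0.552 to 0.729 in barcodes with at most 50 UMIs, and the part of free RNA in it was not tested. Without thinning Fcnb was seen in 28.7% to 39.9% and 0.794% to 4.71%, and Cebpe in 88.3% to 94.6% and 3.97% to 6.32%.

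The secondary granule genes Camp and Ngp showed no such difference at equal depth. Slpi, like Fcnb on the list of secondary and tertiary granule genes used here, did show it. With 1000 UMIs drawn, Slpi was seen in 19.2% to 21.6% of the Elane-high cells and 2.35% to 5.26% of the B-like cells. Camp was seen at 1000 UMIs in 16.5%, 15.1%, 14.4% and 19.2% of the Elane-high cells, in library order as above, and in 24.2%, 31.0%, 22.7% and 21.2% of the B-like cells. Ngp gave 10.8% to 19.8% and 24.2% to 42.4%, lower in the Elane-high cells of each library. The selection caps both genes. Lcn2 (lipocalin 2), outside the rule, gave 7.55% to 8.41% and 4.71% to 10.3%, so the ranges overlapped. S100a8 was seen in 59.8%, 66.1%, 59.4% and 67.0% of the Elane-high cells and 62.1%, 57.1%, 46.4% and 55.3% of the B-like cells, and S100a9 in 40.2%, 36.4%, 37.1% and 44.4% and 50.5%, 53.2%, 42.3% and 63.5%, lower in the Elane-high cells of each library. Barcodes with at most 50 UMIs held at least 82.2 S100a8 and 61.5 S100a9 UMIs per 10000 in every library, and the Elane-high cells at most 38.5 and 10.6. The part of free RNA in the S100a8 and S100a9 levels given here was not tested. A given number of free UMIs makes a larger part of a shallow cell. Without thinning Camp was seen in 92.4% to 98.8% of the deep Elane-high cells and 46.4% to 56.5% of the shallow B-like cells. Camp made 44.3% to 49.4% of the sum of Camp, Ngp and Ltf in the Elane-high cells and 46.0% to 51.5% in barcodes with at most 50 UMIs. That sum was highest in Idh1-R132H 2 in both, at 4.77 and 84.2 per 10000, and lowest in Idh1-R132H 1, at 2.82 and 55.3. How much of it comes from free RNA was not tested.

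Within the Elane-high cells many genes followed the level of Elane. The cells of each library were split into 3 equal bands, which ran on average from 21.0 to 129.9, from 131 to 202 and from 203 to 369 Elane UMIs per 10000. The bands are chosen on Elane and carry no test. From the lowest to the highest band, Fcnb stood at 5.28 ± 4.39, 42.5 ± 19.4 and 212 ± 47.9 CPM (SD, n = 4 libraries) and S100a8 at 714 ± 164, 2018 ± 615 and 7568 ± 567 CPM. Ly6c2, a surface gene of granulocyte and monocyte precursors, stood at 406 ± 102, 1518 ± 327 and 3069 ± 246 CPM. It is on the list of monocyte and macrophage genes used here, so its climb is not particular to neutrophil genes. Pglyrp1, a peptidoglycan recognition protein gene, stood at 211 ± 35.0, 533 ± 68.1 and 781 ± 18.7 CPM. Prtn3 and Mpo were less steep, and Calr, a chaperone gene on the primary granule list, ran the other way. Prtn3 stood at 4042 ± 439.9, 6548 ± 536 and 8819 ± 331 CPM and Mpo at 8558 ± 162, 11662 ± 569 and 13520.3 ± 691 CPM. Calr stood at 2015 ± 126, 1913 ± 142 and 1579.8 ± 78.9 CPM.

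Progenitor and basophil genes ran the other way. Cd34 stood at 179.5 ± 25.3, 82.2 ± 9.92 and 24.8 ± 5.31 CPM and Sox4, a factor of early progenitors, at 95.6 ± 3.45, 39.6 ± 5.69 and 15.1 ± 3.34 CPM. Gata2, a factor of stem cells and basophils, stood at 24.3 ± 2.36, 4.84 ± 2.76 and 3.40 ± 2.18 CPM. Mcpt8, a basophil protease gene, stood at 203 ± 46.0, 61.6 ± 18.2 and 46.7 ± 15.1 CPM. The lowest band was therefore the one with most transcripts of early and basophil-related genes. Gfi1 stood at 35.7 ± 7.21, 53.4 ± 3.97 and 64.4 ± 7.37 CPM, higher with Elane, while Cebpe stood at 248 ± 66.6, 251 ± 49.9 and 289 ± 26.3 CPM. Camp stood at 166 ± 44.2, 167 ± 41.6 and 187 ± 37.8 CPM and Ngp at 176 ± 23.3, 166 ± 39.3 and 176 ± 39.0 CPM, with means closer to each other than the libraries were.

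**Figure D2:**
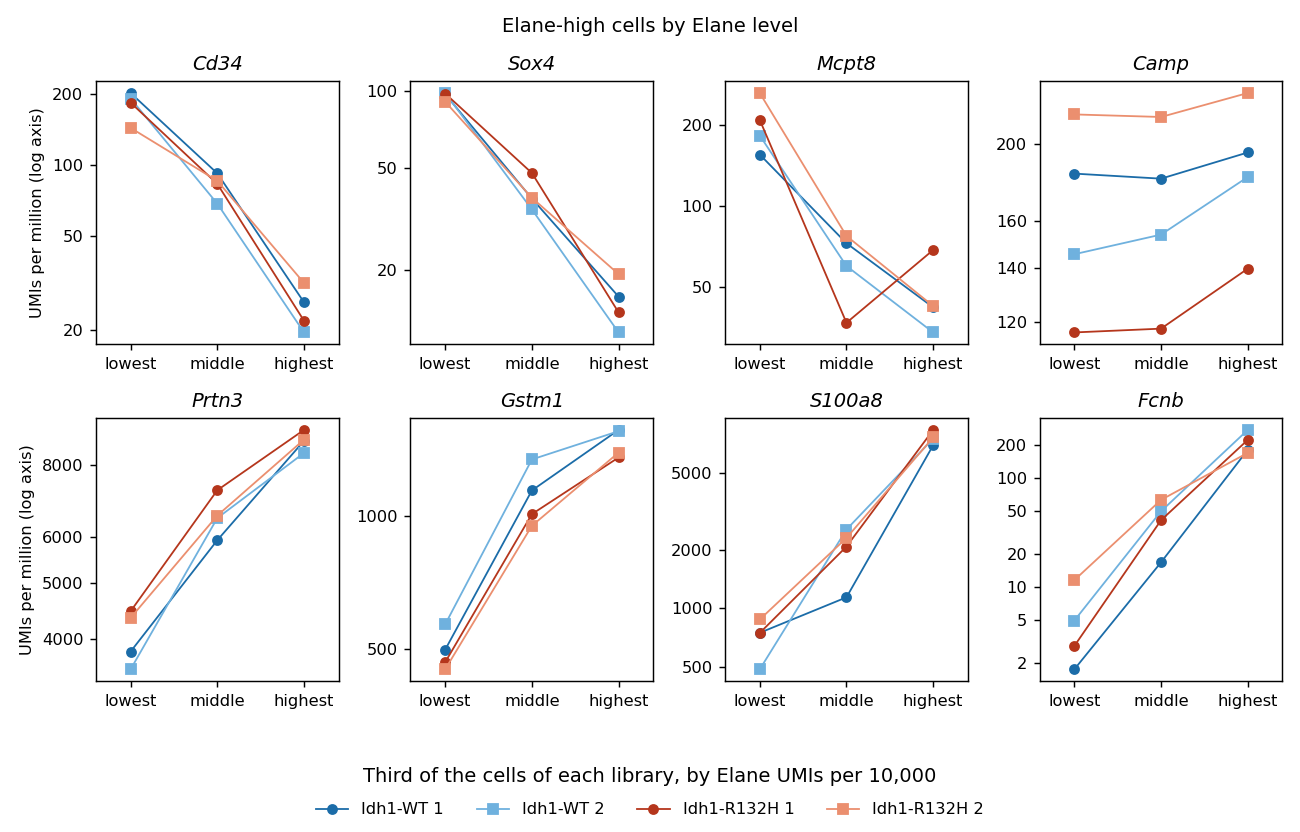
CPM (vertical log axis) of 8 genes in the 3 equal bands of the Elane-high cells of each library by Elane level (horizontal axis); lines join the bands of 1 library. Fcnb and S100a8 climb and Cd34 and Sox4 drop from band to band in all 4 libraries.

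Summed cell cycle transcripts were at like levels in the bands, while the share of cells past a UMI threshold was higher with Elane. UMIs of 35 G2 and M phase genes stood at 28.0 ± 2.12, 27.4 ± 3.38 and 27.5 ± 2.27 per 10000 and those of 34 S phase genes at 32.4 ± 1.83, 31.7 ± 1.53 and 32.9 ± 1.13. With 3000 UMIs drawn per cell, 76.1 ± 2.15, 83.9 ± 3.16 and 88.3 ± 3.78% of the cells held at least 3 UMIs of G2 and M phase genes, and the highest band was above the lowest in all 4 libraries. Mki67, a gene of dividing cells, stood at 46.8 ± 4.89, 42.0 ± 8.60 and 45.3 ± 3.68 CPM. Transcripts of 26 ribosome biogenesis genes and MYC targets were lower with Elane, at 94.5 ± 3.94, 86.8 ± 4.25 and 74.9 ± 3.68 per 10000.

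A few cells carried transcripts of other lineages. Prg2, the eosinophil major basic protein gene, stood at 618, 84.0, 498 and 129.7 CPM in library order. Jchain, a plasma cell gene, stood at 4.98, 0, 249 and 1.67 CPM, and 1 cell held 96.5% of its UMIs. Prss34, a basophil protease gene, stood at 12.8, 5.91, 4.64 and 93.6 CPM, and 1 cell held 76.1%. Jchain and Prss34 were each high in 1 library through 1 cell, and Prg2 was high in Idh1-WT 1 and Idh1-R132H 1, 1 library of each genotype. Summed over its list, B cell markers gave 1.23 to 1.31 UMIs per 10000, megakaryocyte markers 0.256 to 0.302, erythroid markers 1.03 to 1.11 and dendritic cell markers 1.76 to 2.04. Basophil and mast markers gave 2.03 to 3.64 and eosinophil markers 1.44 to 7.10. Monocyte and macrophage genes, Ly6c2 among them, gave 23.7 to 28.2. T and NK markers gave 17.3 to 19.5, nearly all from Nkg7, a granule gene at 1846, 1945, 1730.2 and 1739.8 CPM.

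The share of Elane-high cells was slightly higher in both Idh1-R132H libraries. It was 7.23% and 8.30% of kept cells in the 2 Idh1-WT libraries, against 8.42% and 8.67% in the 2 Idh1-R132H libraries, a difference of 0.781 percentage points with an exact two-sided permutation p of 0.333, the lowest value possible with 2 libraries on each side. The difference was −0.104 points with a granule limit of 5 per 10000 and −0.217 points among Xist-carrying cells, and 2.19 points among the other cells. With that granule limit the shares were 5.95% and 7.01% in Idh1-WT, against 7.76% and 5.00% in Idh1-R132H. The limit lies close to the median sum of Ltf, Camp and Ngp in the Elane-high cells of Idh1-R132H 2, 4.65 per 10000. In the other libraries this median was 2.57 to 3.55. The committed share of Elane and Ms4a3 cells given above overlapped between the genotypes.

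Cycling and granule sums were close in both genotypes. G2 and M phase UMIs stood at 27.6 and 29.9 per 10000 in Idh1-WT, against 26.0 and 27.0 in Idh1-R132H (exact permutation p = 0.333), and S phase UMIs at 33.6 and 32.4, against 32.1 and 31.2 (exact permutation p = 0.333). Both sums were lower in both Idh1-R132H libraries. The G2 and M difference was −4.05 per 10000 among Xist-carrying cells and 0.00465 among the others, and the S phase difference −0.176 and −3.45. With 3000 UMIs per cell, 82.3% and 84.9% of the Idh1-WT cells and 82.4% and 81.4% of the Idh1-R132H cells held at least 3 UMIs of G2 and M phase genes, and the groups overlapped. Secondary and tertiary granule genes outside the rule summed to 27.0 and 29.8 per 10000 in Idh1-WT, against 27.0 and 26.4, also with overlap.

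Few single genes changed. Of 9868 genes tested on counts summed per library, 22 changed at an adjusted p below 0.05 (edgeR's quasi-likelihood test, Benjamini-Hochberg), which is 0.223%. Of these, 12 rose (0.122%) and 10 fell (0.101%), and with library totals as the only scaling 8 rose and 12 fell. DESeq2 called 17 genes, among them 15 of the 22, and gave the other 7 no adjusted p. The number depended on single libraries. It was 50 without Idh1-WT 1, 38 without Idh1-WT 2, 34 without Idh1-R132H 1 and 9 without Idh1-R132H 2. Of the 22 genes, 14 were called in Xist-carrying cells alone and 13 in the other cells.

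Dmkn, Slpi, Trem3 and Fcgr3, genes of secreted or surface proteins, fell. Dmkn, the gene of the secreted protein dermokine, stood at 104 and 115 CPM in Idh1-WT and 61.5 and 70.5 CPM in Idh1-R132H. Its log2 change was −0.71 (SE 0.09, adjusted p = 0.00281 by edgeR), and it was called in all 19 alternatives. Slpi, an inhibitor of elastase and other serine proteases, stood at 243 and 267 against 194 and 203 CPM, a log2 change of −0.34 (SE 0.06, adjusted p = 0.0340 by edgeR). Trem3, a myeloid receptor gene, stood at 222 and 232 against 178 and 180.3 CPM (log2 −0.32), and Fcgr3, an Fc receptor gene, at 306 and 344 against 264 and 250.1 CPM (log2 −0.32). The groups did not overlap for these genes, as for 22.6% of all tested genes in this direction. Slpi was not called in cells other than Xist-carrying ones, and Trem3 and Fcgr3 were not called in Xist-carrying cells alone. These 3 genes were also not called without Idh1-WT 2 or without Idh1-R132H 2, and Slpi and Trem3 not without Idh1-R132H 1.

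Gsr, Gstm1, Cycs, Fdps and Slc4a8 also fell. Gsr (glutathione reductase, which uses NADPH) stood at 437 and 458 against 359 and 357 CPM, a log2 change of −0.30 (SE 0.05, adjusted p = 0.0147 by edgeR). It was called in Xist-carrying cells and in the others, but not without Idh1-R132H 1 or without Idh1-R132H 2. Gstm1, a glutathione transferase gene, stood at 1083 and 1192 against 962 and 940.1 CPM (log2 −0.24) and Cycs (cytochrome c) at 753 and 799.7 against 656 and 639 CPM (log2 −0.24). Fdps, of the cholesterol pathway, stood at 156 and 168 against 129 and 117 CPM (log2 −0.37). Neither Gstm1, Cycs nor Fdps was called in Xist-carrying cells alone, and Fdps was not called in the other cells either. Without Idh1-WT 2 or without Idh1-R132H 2 none of these 3 was called, and without Idh1-R132H 1 Gstm1 and Cycs were not. Slc4a8, a bicarbonate transporter gene, stood at 29.5 and 25.1 against 13.2 and 12.7 CPM (log2 −1.06, SE 0.15), and in cells other than Xist-carrying ones its change was −0.64 and was not called. Srp54b had a log2 change of −0.51, but near-identical copies can share its reads, so this value is uncertain, and it was not called in cells other than Xist-carrying ones.

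The rises were small for abundant transcripts and large for rare ones. Rplp1 and Rps12, of the ribosome, stood at 3864 and 3939.8 against 4382 and 4503 CPM and 3031 and 2988 against 3382 and 3479 CPM, each a log2 change of 0.21, and were not called without Idh1-R132H 2. The genes mt-Co2 and mt-Co3, of cytochrome c oxidase, changed by 0.21 and 0.16, and Malat1, a nuclear noncoding RNA, by 0.18. None of these last 3 was called without Idh1-R132H 1 or without Idh1-R132H 2. Gm11808 changed by 0.62 and was not called with library totals as scaling, in cells other than Xist-carrying ones, or without Idh1-WT 1, Idh1-R132H 1 or Idh1-R132H 2. Gt(ROSA)26Sor, a noncoding RNA of the Rosa26 locus, stood at 10.3 and 9.38 against 22.5 and 17.7 CPM (log2 1.04, SE 0.17, adjusted p = 0.0236 by edgeR), and was not called without Idh1-R132H 1 or in cells other than Xist-carrying ones. Ddx3y, a Y-linked gene, stood at 2.14 and 5.30 against 10.7 and 10.5 CPM, beside the difference in Xist, and was not called without Idh1-WT 1 or without Idh1-R132H 2. Ddx3y was also not called with library totals as scaling or in cells other than Xist-carrying ones. Xist-carrying cells hold no Y-linked UMI by definition. The rarer genes Xlr, Mtus2, Gdf3 and Gm26737, like Slc4a8, lie below the level at which genes were to be named and were chosen after their values were seen. Xlr, an X-linked lymphocyte-regulated gene, stood at 1.96 and 0 against 27.3 and 22.0 CPM and Mtus2 at 1.96 and 0.612 against 14.3 and 8.95 CPM. Xlr was not called in Xist-carrying cells alone, in the other cells, or with an Elane minimum of 10 per 10000. Gdf3 stood at 24.0 and 17.9 against 36.2 and 32.9 CPM and Gm26737 at 0.356 and 1.43 against 3.57 and 7.13 CPM, with 92.5% of its Idh1-R132H UMIs in 5 cells. Mtus2 was called without each library in turn, while Xlr was not called without either Idh1-R132H library, Gdf3 was called only without Idh1-WT 1 of these 4 fits and not with library totals as scaling, and Gm26737 was not called without Idh1-WT 1 or Idh1-R132H 2.

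**Figure D3:**
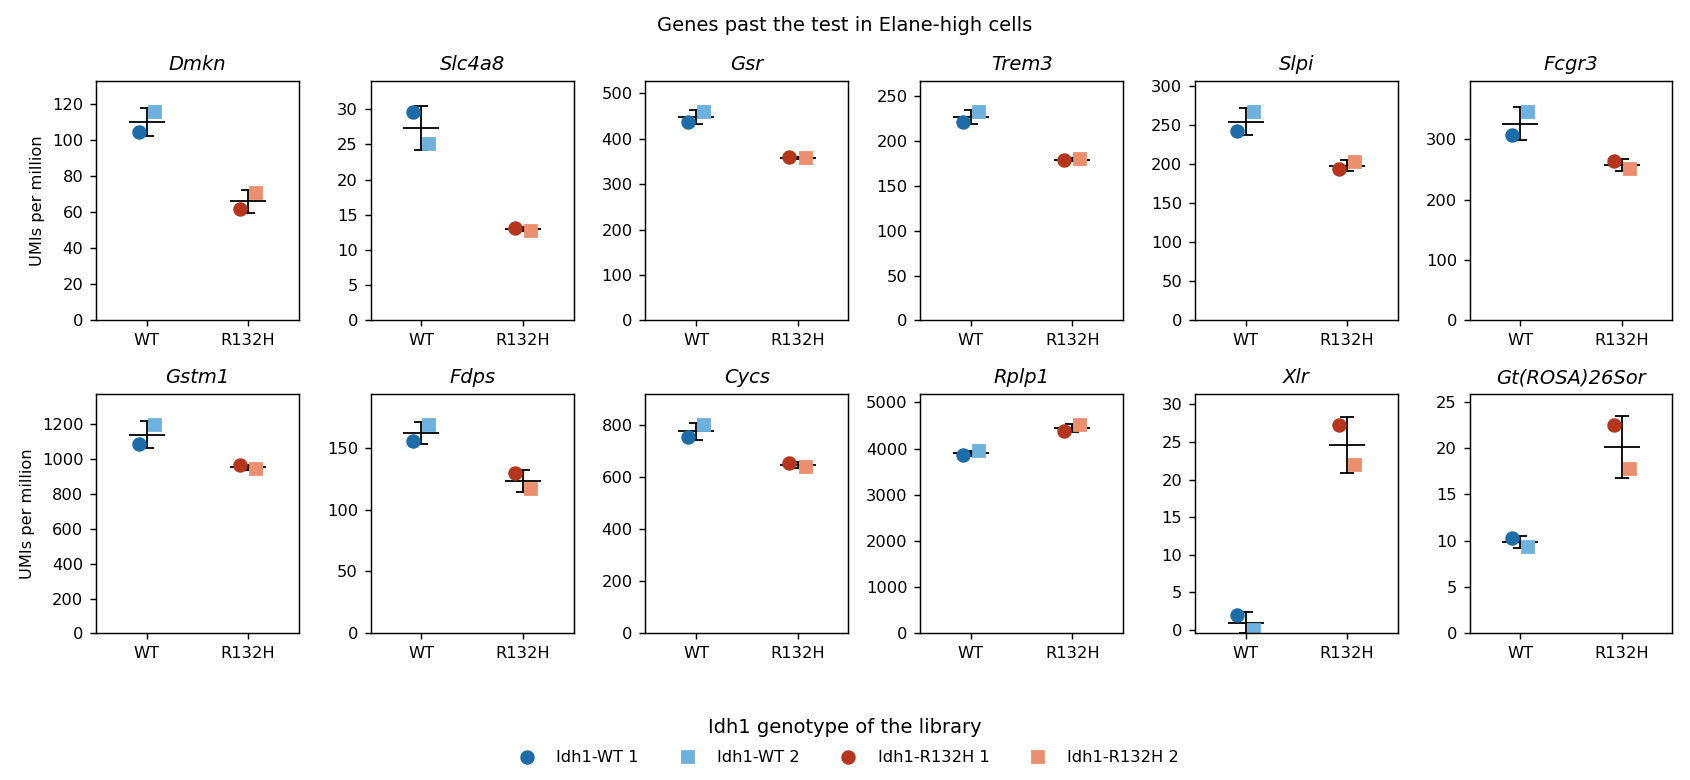
CPM (vertical axis) of 12 genes that passed the test in the Elane-high cells, by Idh1 genotype (horizontal axis). Points are libraries and bars the mean and SD of n = 2. The Idh1-R132H libraries lie on 1 side of the Idh1-WT libraries in every panel, with Dmkn at 61.5 and 70.5 against 104 and 115. The genes were picked because they passed the test on these libraries. Over all 9868 tested genes the groups did not overlap for 18.3% (higher in Idh1-R132H) and 22.6% (lower).

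No primary granule gene was called by edgeR. Of 17 tested, 8 had an unadjusted p below 0.05 and 14 were lower in Idh1-R132H, beside 918 and 4796 of all 9868 genes, with a median log2 difference of −0.07 beside 0.01 over all tested genes. Mpo had a difference of −0.08 (SE 0.03, adjusted p = 0.340 by edgeR) and Ctsg one of −0.06. Prtn3 had a positive difference of 0.15 (SE 0.03, adjusted p = 0.0877 by edgeR). Lyz2 (lysozyme) had one of 0.31 (adjusted p = 0.117 by edgeR). The basophil protease gene Prss34 is also on this list, with a difference of 2.43 (adjusted p = 0.810 by edgeR). Its value rests on few cells, since 5 cells held 89.3% of its Idh1-R132H UMIs. Prtn3 passed in Xist-carrying cells alone, at 0.19, and without either Idh1-WT library, among 5 of 19 alternatives.

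Of all 9868 tested genes 22 (0.223%) were called and 918 had an unadjusted p below 0.05. Among 16 secondary and tertiary granule genes Slpi fell and none rose (median −0.04, unadjusted p below 0.05 in 5). Among 17 genes of later maturation Slpi and Trem3 fell, while the median was 0.13 (unadjusted p below 0.05 in 6). Slpi is on both lists. S100a9, the partner of S100a8, stood at 751 and 897 against 972 and 1055 CPM and Clec4d, a lectin receptor gene, at 14.2 and 14.1 against 19.8 and 21.7 CPM, neither past the test. Beside the same 918 of 9868, none of 16 neutrophil regulators was called (median 0.02, unadjusted p below 0.05 in 1). Cebpe stood at 250.4 and 326 against 258 and 217 CPM and Gfi1 at 51.4 and 47.1 against 48.7 and 59.8 CPM, with overlapping groups. None of 18 stem and multipotent genes was called (median 0.13, unadjusted p below 0.05 in 3), with Kit, the stem cell factor receptor gene, at 31.3 and 29.4 against 37.4 and 40.6 CPM. None of 17 monocyte and macrophage genes was called (median 0.16, unadjusted p below 0.05 in 4), and none of 30 dioxygenase genes (unadjusted p below 0.05 in 3).

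Beside 918 of all 9868 genes with an unadjusted p below 0.05, none of 34 S phase genes was called (median −0.04, unadjusted p below 0.05 in 6) and none of 35 G2 and M phase genes (median −0.07, unadjusted p below 0.05 in 6). Rrm2, a ribonucleotide reductase gene, stood at 179 and 175 against 158 and 141 CPM, and Cdk1, the mitotic kinase gene, at 156 and 163 against 139 and 137 CPM. Mki67 stood at 42.9 and 43.2 against 43.5 and 49.0 CPM. The first 2 of these were lower and Mki67 higher in both Idh1-R132H libraries, none past the test.

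Of all 9868 tested genes 4796 were lower, 5072 were higher, 918 had an unadjusted p below 0.05 and 22 (0.223%) were called. Of 20 cholesterol synthesis genes 18 were lower and Fdps fell, with a median of −0.31 and an unadjusted p below 0.05 in 7. Msmo1, a sterol oxidase gene, stood at 16.0 and 16.5 against 10.7 and 8.80 CPM (adjusted p = 0.143 by edgeR). Of 24 genes of glutathione and NADPH supply 16 were lower and Gsr and Gstm1 fell (median −0.05, unadjusted p below 0.05 in 7). Pgd, an NADPH-making enzyme gene, stood at 187 and 181 against 161 and 160.3 CPM and was not called. Of 13 mitochondrially encoded genes 11 were higher and mt-Co2 and mt-Co3 rose (median 0.06, unadjusted p below 0.05 in 5). Of 36 genes of folding and secretion 29 were lower and none called (median −0.10, unadjusted p below 0.05 in 11), beside 4796 lower and 918 below 0.05 of all 9868 genes. Of 26 ribosome biogenesis genes and MYC targets none was called (median −0.05, unadjusted p below 0.05 in 3). Ribosomal protein genes, listed after Rps12 and Rplp1 were seen, were higher in 80 of 82, beside 5072 of all 9868 genes, with a median of 0.09. An unadjusted p below 0.05 was found in 57 of the 82, beside 918 of all genes, and Rps12 and Rplp1 were called. With library totals as scaling 77 of the 82 were higher, beside 4606 of all genes.

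**Figure D4:**
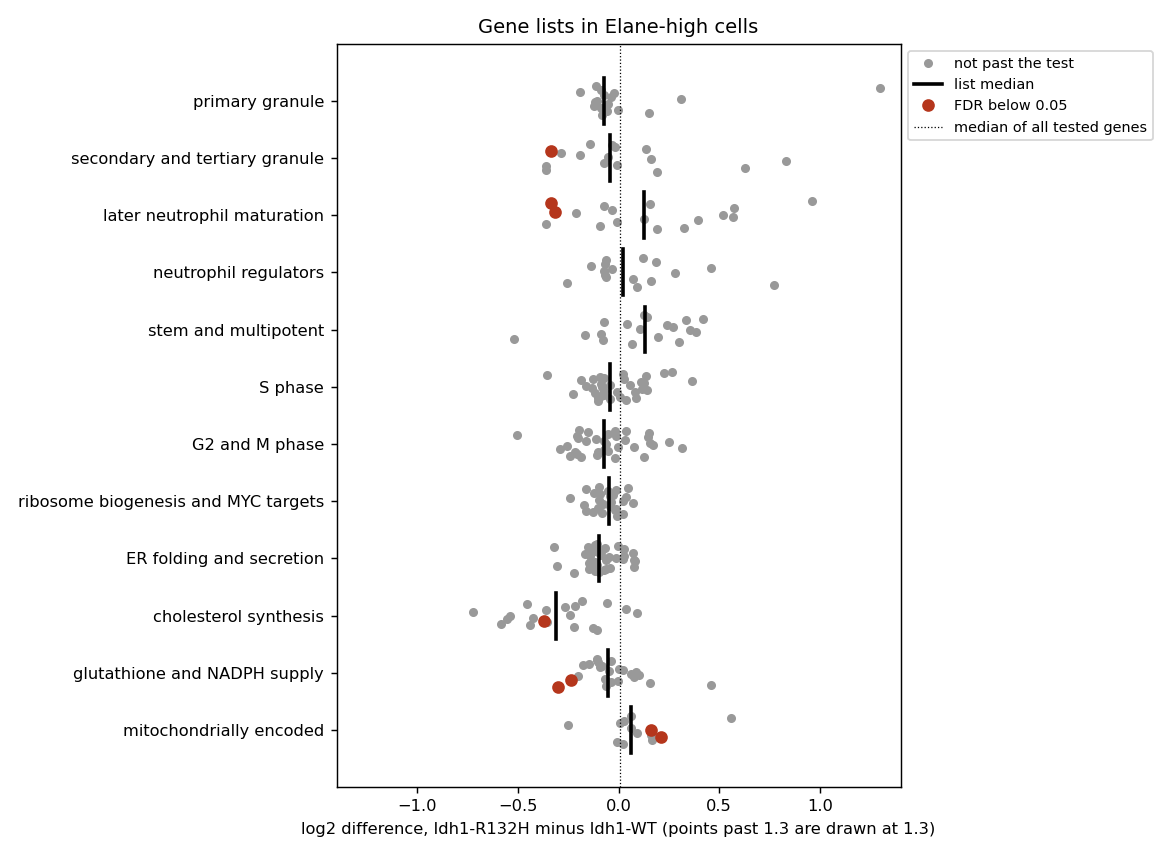
Log2 difference between Idh1-R132H and Idh1-WT (horizontal axis) of each tested gene of 12 lists (vertical axis); red points passed the test, black bars are list medians and the dotted line is the median of all tested genes. The cholesterol synthesis bar lies at −0.31. The 1 point beyond the limit of 1.3, Prss34 of the primary granule list, is drawn at the limit.

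The genes that fell were also split by the level of Elane, as a description. Gsr stood in the lowest band at 265 ± 9.55 CPM in Idh1-WT and 254 ± 8.55 in Idh1-R132H (SD, n = 2 libraries) and in the highest at 607 ± 20.4 CPM in Idh1-WT and 454 ± 12.7 in Idh1-R132H. Trem3 stood in the lowest band at 88.6 ± 4.92 CPM in Idh1-WT and 88.1 ± 0.890 in Idh1-R132H and in the highest at 357 ± 8.96 CPM in Idh1-WT and 271 ± 10.6 in Idh1-R132H. Dmkn stood in the lowest band at 53.7 ± 1.26 CPM in Idh1-WT and 41.5 ± 13.1 in Idh1-R132H and in the highest at 176 ± 13.5 CPM in Idh1-WT and 93.8 ± 12.6 in Idh1-R132H. For these 3 genes the gap between the means was wider in the highest band. Slc4a8 stood in the lowest band at 37.2 ± 3.82 CPM in Idh1-WT and 15.0 ± 5.76 in Idh1-R132H and in the highest at 22.6 ± 1.95 CPM in Idh1-WT and 11.8 ± 1.32 in Idh1-R132H. Whether the differences vary between bands was not tested.

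**Figure D5:**
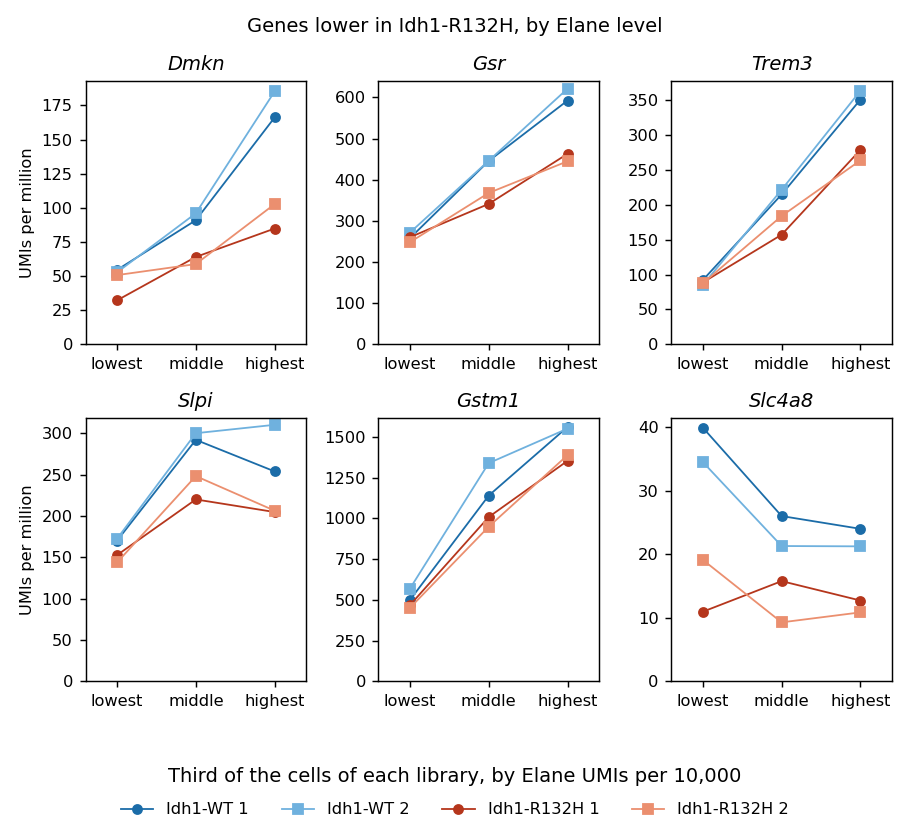
CPM (vertical axis, from 0) of 6 genes that fell in Idh1-R132H, in the 3 bands of the Elane-high cells by Elane level (horizontal axis); lines join the bands of 1 library. In the highest band Gsr is at 607 on average in Idh1-WT and 454 in Idh1-R132H.

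The genotype difference was compared with that in each neighbouring class by an interaction of genotype and class, blocked on library. It differed for 9 of 9673 genes (0.093%) from the Elane-low cells, for 1 of 10525 (0.0095%) from the Irf8 or F13a1 cells and for 21 of 9076 (0.231%) from the granule-loaded cells. Dmkn was not among them. It stood at 138 and 129 against 61.6 and 64.6 CPM in the Irf8 or F13a1 cells and at 16.2 and 8.97 against 19.7 and 23.8 CPM in the Elane-low cells, and its difference in effect from the latter was −1.44 (adjusted p = 0.0623 by edgeR). Gstm1, named after its value was seen, stood at 125 and 131 against 131.8 and 170.0 CPM in the Elane-low cells, and its difference of −0.49 passed (adjusted p = 0.0460 by edgeR).

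Plac8, a gene of myeloid progenitors, stood at 6246 and 6186 against 6095 and 6193 CPM in the Elane-high cells and at 3619 and 3701 against 4283 and 4429 CPM in the Elane-low cells, a difference in effect of −0.27 (adjusted p = 9.13e-05 by edgeR). Npm1, a nucleolar protein gene, stood at 1934 and 1728 against 1792 and 1795 CPM in the Elane-high cells and at 505 and 497 against 810.2 and 1014 CPM in the granule-loaded cells. Calr, a chaperone gene of the endoplasmic reticulum, stood at 1953 and 1885 against 1719 and 1768 CPM and at 417 and 571 against 737 and 744 CPM. Both were higher in the Idh1-R132H libraries among granule-loaded cells and not among Elane-high cells. The granule-loaded cells number 15 to 25 per library, and the 21 genes became 2 without the top 5% of doublet scores and 0 in Xist-carrying cells alone.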

How the data were processed

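Single-cell 3′ libraries of 2 Idh1-WT and 2 Idh1-R132H chimeric marrows were analysed from the deposited matrices of UMI counts per gene and barcode, which the authors made with Cell Ranger 4.0.0; GRCm38 (mm10) and Seurat are also listed, per the submitters' processing notes. Counting parameters are not given in the sources used here. The cells, gene lists and tests were chosen with earlier results of these data known.

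UMIs of the Elane-high cells were summed per library, since cells are not replicates, and tested with edgeR 4.0.16 (R 4.3.3; TMM factors, filterByExpr, robust quasi-likelihood test, Benjamini-Hochberg adjusted p below 0.05), all groups in 1 fit. On simulated counts for 9720 genes, 21.9%, 81.8% and 96.8% of genes changed by 0.5, 1 and 2 on the log2 scale were recovered, with 7 false calls. Shares and sums were compared by an exact two-sided permutation test over libraries. The text names the 10 strongest rises and falls that passed (mean log2 CPM 5 or more), up to 4 genes per list by p, a set of fixed genes and up to 5 genes per class difference, and marks exceptions. Bands, class levels and single-cell shares are descriptions. Scrublet called 21 of 13539 cells (0.155%) and so did not work as a doublet filter, and the top 5% of scores were left out as an alternative. The free RNA subtracted in another alternative was scaled on the median S100a8 and S100a9 UMIs of B-like cells, a choice made after seeing the data. Symbols of 516 of 520 list entries matched a feature. Python 3.11.15, scanpy 1.11.5 and DESeq2 1.42.0 (alternative test) were also used. Alternatives changed the normalization, gene and cell filters, limits of the rule, doublets, free RNA, cell numbers and libraries.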

Additional observations from a re-analysis of the deposited data

Results flagged for a closer look

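The effect of Idh1-R132H in the Elane-high cells differed from that in a neighbouring class for 11 of the named comparisons, by the genotype by class term (edgeR, Benjamini-Hochberg). Differences are effects in Elane-high cells minus effects in the neighbour, on the log2 scale. Against the Elane-low cells, Plac8 differed by −0.2662. Ifit1, an interferon-induced gene, differed by −10.02, with 0 and 0 against 3.93 and 23.8 CPM in the Elane-low cells, where 1 cell held 75.0% of its UMIs, and 5 Elane-high cells held 86.0% of its Idh1-WT UMIs. Prss34 differed by 2.615, and 1 Elane-high cell held 76.1% of its UMIs in this class. In the Elane-low cells Prss34 stood at 1110 and 650 against 60.0 and 1493 CPM, and 1 cell held 33.5% of its UMIs. The sizes for Ifit1, Jchain and Gm26737 are fitted with very low counts and are no bounds. Jchain differed by 11.02, and 1 cell held 96.5%. Gm26737 differed by 6.941, and by 4.054 against the Irf8 or F13a1 cells, with 57.9% of its UMIs in 1 Elane-high cell. Among the Elane-low cells 1 cell held 91.4% of the Gm26737 UMIs, and among the Irf8 or F13a1 cells 1 cell held 26.4%.

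Against the granule-loaded cells, Npm1 differed by −0.8384, Calr by −0.6833 and Mt1, a metallothionein gene, by −0.8271. Mt1 stood at 621 and 571 against 579 and 589 CPM in the Elane-high cells and at 300.3 and 283 against 522 and 533 CPM in the granule-loaded cells. Fkbp11, a gene of secretory cells, differed by −3.198, with 10.6 and 0 against 34.8 and 72.0 CPM in the granule-loaded cells. Jchain differed by 15.4, and 1 granule-loaded cell held 99.9% of its UMIs there. Causes were not tested.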

How the results depend on the processing

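The count of 22 changed genes was 94 with no gene filter, 45 with a granule limit of 5 per 10000, 46 in cells other than Xist-carrying ones (added after seeing the data), 37 with equal cell numbers and 9 to 50 with 1 library left out, where the lone library borrows the spread of the other genotype. For called genes, 335 alternative values passed and 73 did not, with no change of direction. With the replicate number as a block, 21 genes were called, 12 of them among the 22. The numbers give 2 pairs, whose differences correlated at 0.0384 over 9868 genes. The labels do not say what the number stands for. With 2 pairs this value cannot tell whether libraries of the same number share anything else.

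The share of Elane-high cells turned to −0.104 points with a granule limit of 5 and to −0.217 in Xist-carrying cells, and ranged from 0.245 to 1.32 with 1 library left out. The committed share ranged likewise from −2.32 to 5.98, turning without Idh1-WT 1. The G2 and M difference was 0.00465 in cells other than Xist-carrying ones and −3.39 to −1.08 with 1 library left out. With 1 library left out, the S phase difference ranged from −2.00 to −0.720 and the secondary granule difference from −3.16 to −0.289. The S phase difference was −0.176 in Xist-carrying cells and −3.45 in the others, the share difference was 2.19 points in the others, and the G2 and M difference was −4.05 in Xist-carrying cells. The cycling difference turned to 0.0971 with an Elane minimum of 10 and ranged from −3.06 to −0.406 with 1 library left out. Without thinning it was 0.0293. There 99.6% to 100% of the cells of each library were past the threshold, so that value cannot show a direction.

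Genes whose effect differed from the Elane-low cells numbered 29 and 14 with Elane minimums of 40 and 10, 1 in Xist-carrying cells and 12 to 18 with 1 library left out. Against the Irf8 or F13a1 cells they numbered 2 with an Elane minimum of 10, 2 and 3 in Xist-carrying and other cells and 8 to 29 with 1 library left out. Against the granule-loaded cells they numbered 44 with an Elane minimum of 10, 1 with a granule limit of 5, 2 without the top doublet scores, 0 and 10 in Xist-carrying and other cells and 2 to 27 with 1 library left out. The cause of these shifts was not tested. With 2 libraries a group, most changes of 0.5 on the log2 scale would be missed.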
